A study of Mus musculus with 4 samples.

Results

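The microtubule motor mRNAs of cultured cortical neurons were measured as a group of 69 protein-coding genes among the 31053 genes of the count tables. They were taken by symbol, as the genes whose names begin with Kif, Klc, Dync, Dynl or Dctn followed by the number or letter of a family member. The group holds 17 kinesins that carry cargo along neurites, 14 kinesins of the mitotic spindle, 12 other kinesins, 4 kinesin light chains, 14 chains of cytoplasmic dynein 1, 2 chains of cytoplasmic dynein 2 and 6 dynactin subunits. The pattern also took in Kif1bp, which encodes a kinesin-binding protein rather than a motor and was counted with the other kinesins.

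The cultures were primary cortical neurons of WT mice. In the study's culture methods the neurons come from late embryonic C57BL/6J cortices, and floxuridine is added to hold back dividing cells. RNA crosslinked to RPS2, which belongs to the small subunit of the ribosome, was recovered by enhanced crosslinking and immunoprecipitation (eCLIP) with an antibody to the endogenous protein, giving 2 RPS2 IP libraries. The 2 total RNA libraries were made from the same samples before the IP. In the labels the treatment field reads rRNA depletion for IP samples but no treatment for the total RNA samples. The study's methods place that depletion after library preparation and do not say which libraries it covered. If it covered the IP libraries alone, an effect of that step and an effect of the IP cannot be told apart here. The study divided IP by total RNA counts gene by gene to obtain a translational efficiency. The values below compare the same libraries, but as log2 ratios of scaled counts or as edgeR fits, and are not that quotient itself.

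Library totals ran from 4899718 to 16460545 counts, and the motor genes took between 0.965% and 1.56% of them. A single noncoding gene, Gm42418, held 15.3% to 42.6% of each library. With that gene set aside, the motor share was 1.68% and 1.67% in the IP libraries and 1.77% and 1.84% in total RNA. Of the neuronal markers, 8 of 8 were above the count filter. Markers of other cells were present too. The 6 markers of oligodendrocytes and their precursors summed to 51.7 to 66.5 CPM (counts scaled to the effective library size), led by Mbp at 32.7 to 44.2 CPM, with Mog at 0 in 3 libraries and at 0.222 CPM in total RNA replicate 1. The 5 vessel and meningeal markers summed to 3.14 to 22.0 CPM, with Col1a1 at 1.43 to 12.5 CPM and the endothelial Cldn5 at 0 in every library, and the 4 progenitor markers to 80.4 to 110 CPM.

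Kinesins and dyneins are the ATP-driven motors that walk on microtubules. Most kinesins move towards the plus end, which in an axon points away from the cell body, and cytoplasmic dynein 1 moves towards the minus end. A kinesin-1 motor pairs heavy chains (Kif5) with light chains (Klc) that hold cargo. Dynein 1 is built on a heavy chain that holds the motor domain (Dync1h1), with intermediate, light intermediate and light chains, and needs the dynactin complex to run far. Neurons depend on these motors because their synapses and axon tips lie far from the cell body, while the mitotic kinesins serve mainly dividing cells.

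Counts were obtained for 67 of the 69 genes, and 49 passed the count filter and were tested. Kif2b and Kif12 had no count in any library, which allows up to 0.217 and 0.269 CPM in the IP libraries and 0.667 and 0.492 CPM in total RNA (3 counts per library, counting error only). Among the cargo-carrying kinesins 17 of 17 were tested, among the mitotic kinesins 3 of 14, among the other kinesins 8 of 12, among the light chains 4 of 4, among the dynein 1 chains 9 of 14, among the dynein 2 chains 2 of 2 and among the dynactin subunits 6 of 6. The dynein 1 chains that were not tested were Dynlrb2 and the 4 copies of Dynlt1.

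Levels between genes were compared per length, as CPM divided by the annotated exonic length in kilobases (RPKM). Kif1a, which carries synaptic vesicle precursors and dense-core vesicles, had the highest level, with a mean of 321 RPKM over the 4 libraries and a range of 272 to 364, and stood at rank 29 of the 12336 genes tested. Dync1h1 followed at 169 RPKM (146 to 199), and its range did not meet that of Kif1a. Klc1, a kinesin-1 light chain, was at 130 RPKM (120 to 140) and the neuronal kinesin-1 heavy chain Kif5a at 120 RPKM (93.8 to 147). The ranges of Klc1 and Kif5a overlapped, and that of Kif5a also overlapped the ranges of Dync1h1 and of Dctn1.

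Kif5c, another neuronal kinesin-1 heavy chain, was at 87.9 RPKM (84.0 to 91.5) and the dynactin subunit Dctn1 at 86.4 RPKM (70.3 to 108). Below them by mean came the dynein light chain Dynll2 at 71.2 RPKM, the mitochondrial and vesicle motor Kif1b at 66.3 RPKM, Dctn3 at 66.0 RPKM and the light chain Dynlrb1 at 38.8 RPKM. The ranges of Dynll2, Kif1b and Dctn3, taken over IP and total RNA together, overlapped one another. Dynll2 was above Kif1b in both IP libraries (82.4 and 88.6 against 67.3 and 66.0 RPKM). In total RNA Dynll2 was below Kif1b in both libraries (55.7 and 58.1 against 62.8 and 69.1 RPKM). The range of Dynll2 (55.7 to 88.6) also overlapped those of Kif5c and Dctn1, and Dynll2 lay above Dctn1 in both IP libraries. Dctn1 was below Kif5c in both IP libraries and above Kif5c in both total RNA libraries. The range of Dctn3 (54.2 to 79.5) overlapped that of Dctn1 too. Kif5b, the kinesin-1 heavy chain found in most tissues, was at 10.8 RPKM, below Kif5a and Kif5c in every library. Within dynein 1 the levels per length were far from even. The heavy chain Dync1h1 was at 169 RPKM while the intermediate chains Dync1i1 and Dync1i2, which link it to dynactin, were at 20.8 and 5.22 RPKM. The exonic lengths used, 15658, 3572 and 8280 bases for these genes, span all annotated isoforms. In counts, the long mRNAs Kif1a, Dync1h1 and Kif1b held 56.4% and 55.8% of all motor counts in the IP libraries and 58.5% and 59.7% in total RNA.

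**Figure D1:**
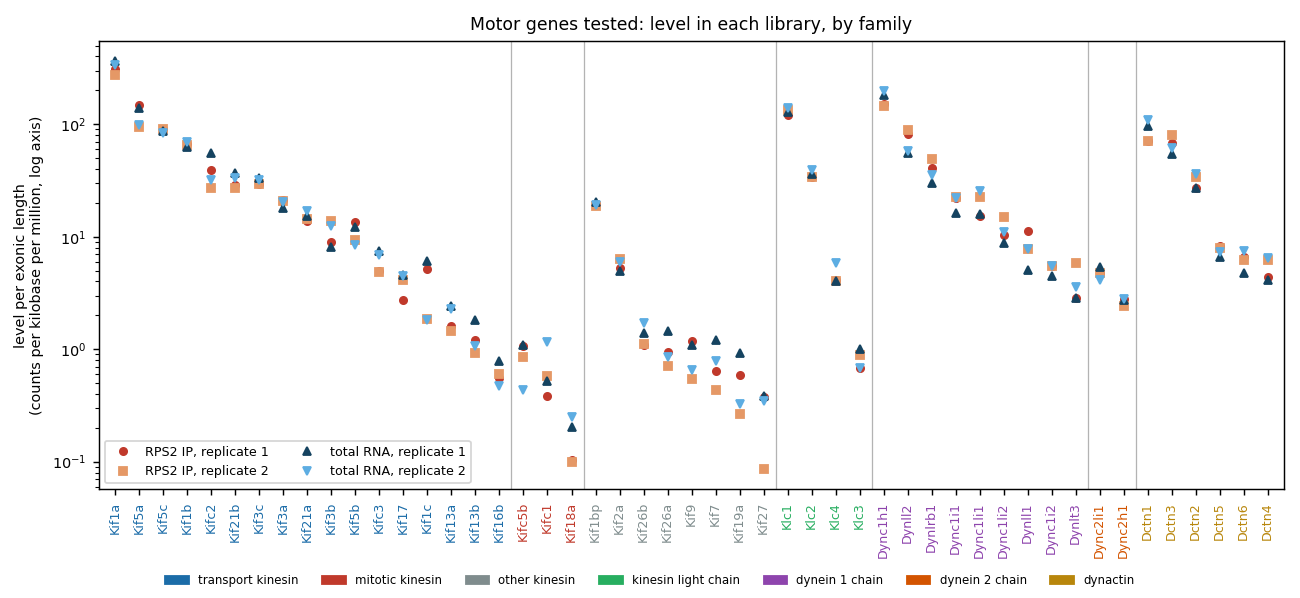
Level of each of the 49 motor genes tested, in CPM per kilobase of exon on a log axis, with genes grouped by family along the x axis and 1 symbol for each library. Kif1a is highest at 272 to 364, Dync1h1 leads the dynein chains, and the mitotic Kif18a is lowest, while Kifc1 and Kifc5b lie among the low other kinesins.

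The first comparison asked which motor mRNAs were over- or under-represented on RPS2 relative to total RNA. Values are CPM, and IP libraries are set against the total RNA library of the same replicate number. Equal numbers were read as the same sample. When the 2 libraries of a group were treated as unpaired replicates, edgeR's quasi-likelihood test called 0 of the 49 motor genes and 0% of all 12336 genes once p-values were adjusted (threshold 0.05). Before adjustment 4 motor genes (Dynll2, Dctn1, Kifc3 and Kif13a) and 349 genes in all were under 0.05, and unpaired DESeq2 called 0 genes higher and 5 lower among all genes. With the replicate number as a block, 5 motor genes were called higher in the IP and 7 lower, and 37 were not called. Across all genes the blocked fit called 6.63% higher and 7.55% lower. Among the 7765 genes with a mean of at least 10 CPM it called 9.34% higher and 11.4% lower, and all 12 motor calls lie among the 37 motor genes above that level. The calls below all come from the blocked fit, which leaves 1 residual degree of freedom per gene.

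The motor genes called higher were 4 of the 9 dynein 1 chains tested and 1 dynactin subunit: Dynll2, Dynll1, Dynlrb1, Dync1li2 and Dctn3. Those called lower were 5 of 28 kinesins (Kif13a, Kifc3, Kifc2, Kif21b and Kif26b), the dynein heavy chain Dync1h1 and the largest dynactin subunit Dctn1. No kinesin or kinesin light chain was called higher, where the shares over all genes were 6.63% and, at 10 CPM or more, 9.34%. Both IP libraries lay above both total RNA libraries for 9 of the 49 motor genes and below them for 13, and the groups overlapped for 27, where the shares over all genes were 16.9% above and 14.9% below. Replicates 1 and 2 gave a ratio of the same sign for 37 of 49 motor genes, against 66.5% of all genes.

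**Figure D2:**
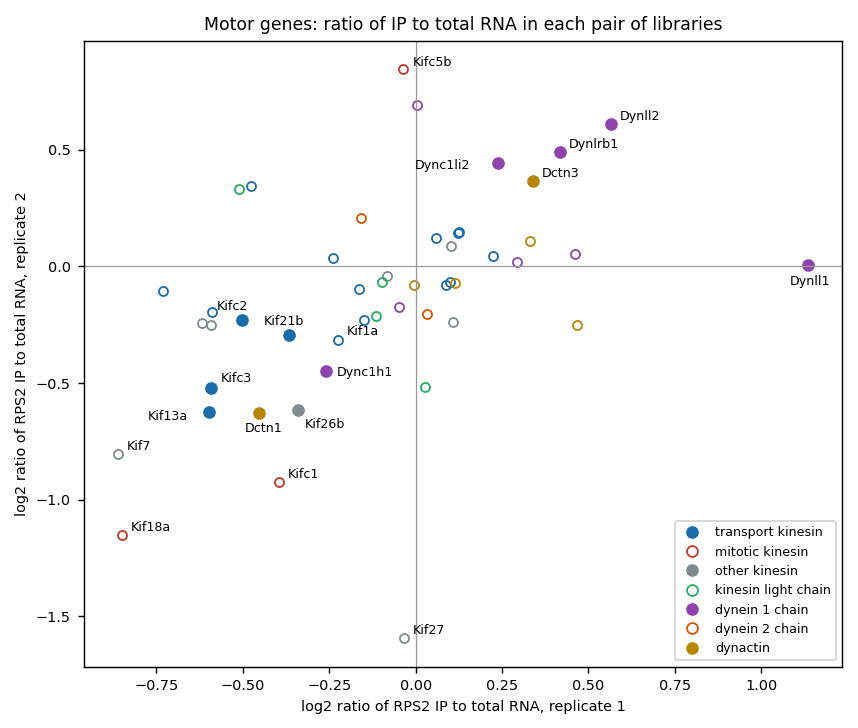
log2 ratio of RPS2 IP to total RNA in the replicate 2 pair (y axis) against the replicate 1 pair (x axis) for the 49 motor genes tested, coloured by family. Filled points are the 12 genes called in the blocked fit, with dynein light chains towards the upper right and cargo-carrying kinesins, Dctn1 and Dync1h1 at the lower left. Dynll1 is far from 0 in the first pair alone.

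The dynein light chains bind the tail of the motor through the intermediate chains. Dynll2 (ENSMUSG00000020483, mm10 chr11:87979525-87987533, minus strand) is an LC8 light chain, a small dimer that also joins other protein complexes. It was at 225 and 242 CPM in the IP libraries of replicates 1 and 2 and at 152 and 159 CPM in total RNA. Both IP libraries were above both total RNA libraries, and the pairs gave nearly the same ratio, 0.57 and 0.61 on the log2 scale. Its blocked log2 fold change was 0.59 ± 0.10 (SE), with an adjusted p of 6.07e-07 by edgeR's quasi-likelihood test. Dynll2 was the 1 motor gene called in all 8 blocked fits that were tried.

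Dynll1 (ENSMUSG00000009013, chr5:115297110-115300999, minus strand) encodes the other LC8 chain. It was at 43.7 and 30.3 CPM in the IP libraries and at 19.8 and 30.2 CPM in total RNA. Replicate 1 differed by 1.14 on the log2 scale and replicate 2 by 0.0053, so the higher call (0.53 ± 0.15, adjusted p = 0.00392) came from replicate 1 alone. In the unpaired fit its log2 fold change of 0.56 was 0.27 without IP replicate 1, 0.80 without IP replicate 2, 0.29 without total RNA replicate 1 and 0.90 without total RNA replicate 2.

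The LC8 mRNAs differ enough for their reads to be counted apart. Their coding sequences are 270 bases each and identical at 219 positions (81.1%). The 30-base stretch with the most differences, coding positions 58 to 87 of the transcripts in GENCODE M21, is shown with the 10 differing bases in capitals.
Dynll1: gaCTcGgtGgaGtgCgcTacCcaggcGTtg
Dynll2: gaTGcCgtTgaCtgTgcCacAcaggcCAtg
Of the 30-base words in Dynll2 transcripts, 0.0% occurred in another gene, against 7.53% for Dynll1.

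The 4 Dynlt1 copies, all on chromosome 17, show the opposite case. Dynlt1a, Dynlt1c and Dynlt1f are identical over 342 coding bases and Dynlt1b differs from them at 1 position. The first 30 coding bases hold that position, given as a capital.
Dynlt1a: atggaagacttccaggcctcCgaggagact
Dynlt1b: atggaagacttccaggcctcAgaggagact
Between 79.0% and 92.9% of the 30-base words of these 4 genes occur in another gene, and reads that aligned to several loci were not counted. Dynlt1a had 12, 12, 5 and 8 counts in IP replicates 1 and 2 and total RNA replicates 1 and 2, and Dynlt1c had 3, 0, 0 and 0. The level of Dynlt1 mRNA cannot be read from these tables, and the 4 genes stayed below the count filter.

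Dynlrb1 (ENSMUSG00000047459, chr2:155236533-155250277, plus strand), a roadblock light chain, was at 40.8 and 49.9 CPM in the IP libraries and 30.5 and 35.5 CPM in total RNA. The groups did not overlap and the ratios of the pairs were 0.42 and 0.49 (0.46 ± 0.13, adjusted p = 0.00698). In the unpaired fit its log2 fold change of 0.46 was 0.30 without IP replicate 2. Dynlt3, a Tctex-type light chain, was at 7.36 and 14.98 CPM in the IP libraries and 7.34 and 9.19 CPM in total RNA and was not called (0.41 ± 0.25, adjusted p = 0.307).

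The light intermediate chains connect dynein to cargo adaptors, and the pair did not share a call. Dync1li2 was at 62.4 and 90.8 CPM in the IP libraries and 52.9 and 66.8 CPM in total RNA, so IP replicate 1 lay below total RNA replicate 2. It was called higher in the blocked fit (0.35 ± 0.11, adjusted p = 0.0230). In the unpaired fit its log2 fold change, 0.35, was 0.60 without IP replicate 1, 0.054 without IP replicate 2, 0.20 without total RNA replicate 1 and 0.53 without total RNA replicate 2. Dync1li1 was at 59.2 and 86.8 CPM in the IP libraries and 61.1 and 98.0 CPM in total RNA, with a log2 fold change of −0.12 ± 0.11 (adjusted p = 0.559). A difference between the paralogues was not tested.

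The intermediate chain Dync1i1, the neuronal form, was at 79.7 and 81.1 CPM in the IP libraries and 57.8 and 78.1 CPM in total RNA (0.25 ± 0.11, adjusted p = 0.132). Dync1i2 was at 45.2 and 45.7 CPM in the IP libraries and 36.9 and 45.1 CPM in total RNA (0.15 ± 0.13, adjusted p = 0.495). For both genes the IP libraries lay above total RNA, by a narrow margin in replicate 2, and neither was called.

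Dync1h1 (ENSMUSG00000018707, chr12:110601452-110666945, plus strand) was the 1 dynein 1 chain called lower. It was at 2374 and 2279 CPM in the IP libraries and at 2841 and 3109 CPM in total RNA, with both IP libraries lower. The ratios of the pairs were −0.26 and −0.45 and the blocked log2 fold change was −0.35 ± 0.11 (adjusted p = 0.0139). Because Dync1h1 holds 78.0% to 87.1% of the dynein 1 counts, the summed counts of the family had log2 ratios of −0.15 and −0.31 in the pairs while the median of its 9 tested genes was 0.35 in the blocked fit, 0.29 in the replicate 1 pair and 0.053 in the replicate 2 pair. In the unpaired fit that median was 0.35, and it was 0.13 without IP replicate 2, 0.10 without total RNA replicate 1 and 0.53 without total RNA replicate 2. The median over all genes tested was 0.011. The dynein 2 heavy chain Dync2h1, which works in cilia, was at 45.8 and 39.5 CPM in the IP libraries and 44.7 and 45.5 CPM in total RNA and was not called (−0.087 ± 0.13, adjusted p = 0.717).

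Of the 6 dynactin subunits, 1 was called higher and 1 lower. Over all genes at 10 CPM or more, 9.34% were called higher and 11.4% lower. Neither dynactin call was kept with an offset for GC content and length. Dctn1 (ENSMUSG00000031865, chr6:83165920-83200117, plus strand) encodes p150Glued, the subunit that reaches out to dynein and to the microtubule. It was at 458 and 457 CPM in the IP libraries and at 628 and 706 CPM in total RNA. Both pairs were lower in the IP, with log2 ratios of −0.45 and −0.63 and a blocked value of −0.54 ± 0.099 (adjusted p = 3.46e-06). Dctn3, a small subunit of the shoulder that joins p150Glued to the rest of the complex, was at 71.5 and 82.9 CPM in the IP libraries and at 56.5 and 64.2 CPM in total RNA. It was higher in both pairs, by 0.34 and 0.37 (0.36 ± 0.11, adjusted p = 0.0187).

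Dctn2, the dynamitin subunit of the same shoulder, was at 131 and 164 CPM in the IP libraries and 131 and 173 CPM in total RNA, so its libraries followed the replicate and not the group. It was not called (−0.044 ± 0.10, adjusted p = 0.842). Dctn4, Dctn5 and Dctn6, which cap the pointed end of the dynactin filament together with Actr10, had log2 fold changes of 0.012, 0.22 and 0.074 and no call. The median of the 6 dynactin subunits was 0.043.

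Among the cargo-carrying kinesins 0 of 17 were called higher and 4 lower, and 11 of 17 had a log2 fold change below 0. Over all genes 6.63% were called higher and 7.55% lower, or 9.34% and 11.4% at 10 CPM or more, and 6011 of 12336 were below 0. All 4 lower calls were lost with an offset for GC content and length. Kif13a (ENSMUSG00000021375, chr13:46749087-46929867, minus strand), an endosome motor, was at 13.0 and 11.8 CPM in the IP libraries and at 19.8 and 18.4 CPM in total RNA. The groups did not overlap and the pairs agreed closely, at −0.60 and −0.63 (−0.62 ± 0.20, adjusted p = 0.0160). Kifc3, a minus-end-directed kinesin, was at 26.3 and 25.6 CPM in the IP libraries and at 39.8 and 36.8 CPM in total RNA. Its pairs gave −0.59 and −0.52 (−0.56 ± 0.14, adjusted p = 0.00155).

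Kif21b, a kinesin of dendrites that also limits microtubule growth, was at 350 and 329 CPM in the IP libraries and at 451 and 404 CPM in total RNA. Both IP libraries were lower than both total RNA libraries (−0.33 ± 0.098, adjusted p = 0.00888). Kifc2, a minus-end-directed kinesin of neurons, was at 153 and 107 CPM in the IP libraries and at 217 and 125 CPM in total RNA. Its groups overlapped because replicate 2 was lower than replicate 1 in both, and within the pairs it gave −0.50 and −0.23 (−0.37 ± 0.10, adjusted p = 0.00425). In the unpaired fit its log2 fold change of −0.40 was −0.68 without IP replicate 1, −0.17 without IP replicate 2, 0.050 without total RNA replicate 1 and −0.74 without total RNA replicate 2.

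Kif1a was at 2904 and 2537 CPM in the IP libraries and at 3394 and 3161 CPM in total RNA. Both IP libraries were lower, but the blocked fit did not call it (−0.27 ± 0.11, adjusted p = 0.0852). DESeq2 and limma-voom with the same block did, with adjusted p-values of 0.0320 and 0.00906. Across the 8 blocked fits its log2 fold change ran from −0.35 to −0.019.

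The 3 kinesin-1 heavy chains and their light chains were not called. Kif5a was at 1031 and 655 CPM in the IP libraries and 971 and 693 CPM in total RNA, with a log2 fold change of 0.0032 ± 0.10 (adjusted p = 0.991). Kif5b was at 99.0 and 68.6 CPM in the IP libraries and 90.7 and 61.9 CPM in total RNA (0.14 ± 0.11, adjusted p = 0.468). Both followed the replicate, with replicate 2 the lower in IP and total RNA alike. Kif5c was at 642 and 654 CPM in the IP libraries and 616 and 600 CPM in total RNA, so that both IP libraries lay slightly above (0.092 ± 0.099, adjusted p = 0.610).

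Klc1 was at 489 and 543 CPM in the IP libraries and 522 and 569 CPM in total RNA (−0.082 ± 0.098, adjusted p = 0.657). Klc2 was at 139 and 140 CPM in the IP libraries and 151 and 162 CPM in total RNA (−0.17 ± 0.10, adjusted p = 0.308). The 4 light chains had log2 fold changes of −0.27 to −0.082. Kif1b, at 1184 and 1162 CPM in the IP libraries and 1106 and 1216 CPM in total RNA, differed by less than the spread between replicates (0.016 ± 0.10, adjusted p = 0.949). Kif3a, a subunit of the kinesin-2 motor of cilia and axons, was at 75.6 and 74.8 CPM in the IP libraries and 64.7 and 72.5 CPM in total RNA and was not called (0.13 ± 0.11, adjusted p = 0.502).

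Of the 8 other kinesins tested, Kif26b was called. It belongs to a family without ATPase activity, and was at 16.1 and 16.3 CPM in the IP libraries and at 20.5 and 25.1 CPM in total RNA, with both IP libraries lower (−0.49 ± 0.17, adjusted p = 0.0361). Kif7, a ciliary regulator of Hedgehog signalling, had the lowest log2 fold change of that family with both pairs on one side, at −0.86 and −0.80, but its 2.96 and 1.97 CPM in the IP libraries and 5.56 and 3.61 CPM in total RNA gave no call (−0.89 ± 0.41, adjusted p = 0.141).

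The second comparison set the mitotic kinesins against the cargo-carrying kinesins. The 14 mitotic genes together had 87 and 83 counts in the IP libraries and 44 and 57 in total RNA, where the 17 cargo-carrying genes had 95705 and 67644 in the IP libraries and 33529 and 41777 in total RNA. That is 9.09 (95% exact binomial interval 7.28 to 11.2) and 12.3 (9.77 to 15.2) mitotic counts per 10000 cargo-carrying counts in the IP libraries. In total RNA it was 13.1 (9.53 to 17.6) and 13.6 (10.3 to 17.7). Both IP libraries were lower than both total RNA libraries, with intervals that overlap, and these cover counting error only. The share depends on how genes were classed. Kif2b and Kif2c were classed as mitotic, but Kif2a with the other kinesins. Kif2a alone had 470 and 451 counts in the IP libraries and 142 and 232 in total RNA, more than the mitotic set in each library.

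The log2 ratio of that share, IP over total RNA, was −0.34 on average, −0.53 in the replicate 1 pair and −0.15 in the replicate 2 pair, and −0.13 without IP replicate 1 and −0.56 without IP replicate 2. With 2 libraries a group no permutation test can reach 0.05, and none was run. A share of these counts belongs to Kifc1 and Kifc5b, near copies for which 58.4% and 52.5% of 30-base words occur in another gene, so their counts are uncertain. Without them the share was 3.13 and 5.32 per 10000 in the IP libraries and 6.86 and 6.22 in total RNA, a log2 ratio of −0.68 on average, −1.13 in the replicate 1 pair and −0.23 in the replicate 2 pair. Leaving out IP replicate 1 gave −0.30 and leaving out IP replicate 2 gave −1.06.

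Single mitotic kinesins were at the edge of detection. Kif11, the motor that pushes spindle poles apart, had 4 and 2 counts in the IP libraries and 0 and 0 in total RNA, and Kif23, which builds the midbody, had 3 and 2 in the IP libraries and 0 and 0 in total RNA. At these depths a total RNA level of 0.667 and 0.492 CPM is still allowed, above the IP levels of both genes, so no fold is given. Kif18a had 14 and 11 counts in the IP libraries and 9 and 15 in total RNA, Kifc1 18 and 22 against 8 and 24, and Kifc5b 39 and 25 against 13 and 7. None of these 3 was called, and their log2 fold changes were −1.15 ± 0.56, −0.78 ± 0.50 and 0.39 ± 0.50.

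The median log2 fold change of the 3 mitotic kinesins tested was −0.78 in the blocked fit and that of the 17 cargo-carrying kinesins −0.13, a difference of −0.64. With 3 genes, that mitotic median is the value of Kifc1 itself, whose counts are uncertain, and its near copy Kifc5b was at 0.39. The difference was −0.17 in the replicate 1 pair and −0.83 in the replicate 2 pair. Without total RNA replicate 2 it was 0.13 in the unpaired fit, against −1.22 without total RNA replicate 1, so its sign depends on which library is left out. Of 12 genes of proliferating cells fixed as a list, 3 passed the filter and 0 were called, with summed levels of 17.2 and 22.0 CPM in the IP libraries and 16.2 and 18.2 CPM in total RNA. Most of that was Pcna, the sliding clamp of DNA replication and repair, at 12.9 and 16.7 CPM in the IP libraries and 8.67 and 11.98 CPM in total RNA, while Mki67, the usual marker of cycling cells, was at 0.289 and 0.179 CPM in the IP libraries and 0.445 and 0 CPM in total RNA.

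Transcript length and GC content moved with the ratio. The genes called higher were 2736 bases long in exons at the median, with a median GC content of 52.0%, against 8094 bases and 56.2% for those called lower, 4892 bases and 49.8% for the motor genes with no call, and 4672 bases and 50.5% for all genes tested. Across the 49 motor genes the Spearman correlation of the blocked log2 fold change was −0.38 with length and −0.43 with GC content, and across all genes −0.17 and −0.32. Genes within a library share its depth and composition, so these are descriptions.

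An edgeR fit with an offset that removes the trend with GC content and length kept the block and called 2 motor genes higher and 0 lower, against 3.86% and 2.8% of all genes. Dynll2 stayed higher at 0.48 ± 0.11 (adjusted p = 0.00039) and Dynll1 at 0.44 ± 0.15 (adjusted p = 0.0419). The 7 genes called lower kept their sign. Dctn1 was at −0.26 (adjusted p = 0.127), Kif13a at −0.48 (0.122), Kifc3 at −0.29 (0.243), Kif26b at −0.22 (0.531), Kifc2 at −0.18 (0.362), Dync1h1 at −0.10 (0.712) and Kif21b at −0.041 (0.888). Of the others called higher, Dynlrb1 was at 0.30 (adjusted p = 0.178), Dync1li2 at 0.32 (0.0791) and Dctn3 at 0.27 (0.166). The part of length and GC content in the calls was not tested beyond this fit.

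**Figure D3:**
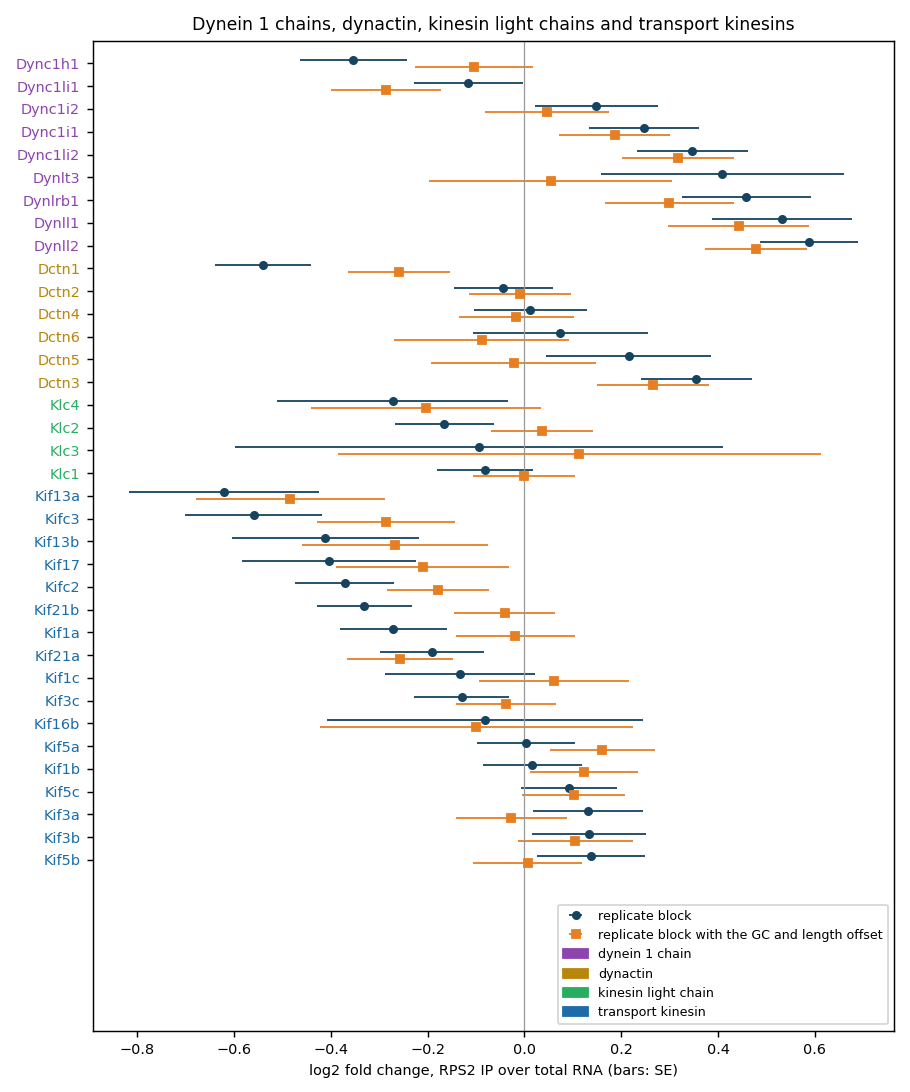
Blocked log2 fold change of RPS2 IP over total RNA with its SE, before (circles) and after (squares) the offset for GC content and exonic length, for the dynein 1 chains, dynactin subunits, kinesin light chains and cargo-carrying kinesins. Dctn1, Dync1h1, Kif21b and Kif1a move towards 0, and Dynll2 and Dynll1 remain at 0.48 and 0.44.

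The split between higher and lower calls also depended on library scaling. With library size alone the blocked fit called 1 motor gene higher and 5 lower, with the median of all genes at −0.073 (2.29% higher and 7.12% lower over all genes). With library size counted without Gm42418 it called 6 higher and 6 lower, with the median of all genes at 0.080 (10.1% and 5.51%). Blocked DESeq2 gave an adjusted p for 30 of the 49 motor genes and 4683 of all genes, and called 1 motor gene higher and 4 lower (3.37% and 8.16% of the genes given an adjusted p, 1.28% and 3.1% of all genes tested). Blocked limma-voom called 5 higher and 8 lower (5.55% and 7.51%). The 12 genes called in the blocked edgeR fit kept their sign in all 8 blocked fits.

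Proteins that link motors to cargo or regulate them were followed as a list of 41 genes, of which 41 were tested, 5 called higher and 6 lower in the blocked fit, with a median of 0.054. Over all genes that fit called 6.63% higher and 7.55% lower, and 9.34% and 11.4% at 10 CPM or more. Blocked DESeq2 called 1 adaptor higher and 3 lower, and the blocked fit with library size only 3 and 5. Kifap3 and Pafah1b1 had no call in either, with adjusted p-values of 0.106 and 0.122 by DESeq2 and 0.278 and 0.295 with library size only. DESeq2 also lost Actr10 (adjusted p = 0.159), Capza2 (0.0836), Bicdl1 (0.0556), Ppfia2 (0.161) and Plekhm2 (0.179). The edgeR fit with library size only also lost Clstn1 (adjusted p = 0.304). Those called higher were Kifap3 (0.34), the cargo subunit of kinesin-2; Pafah1b1 (0.33), which encodes the dynein regulator LIS1; Arl8b (0.69), a small GTPase that loads lysosomes onto kinesin-1; and Actr10 (0.56) and Capza2 (0.66), which sit at the ends of the dynactin filament. Capza2 was at 28.8 and 41.0 CPM in the IP libraries and 18.9 and 25.3 CPM in total RNA, and Arl8b at 71.7 and 83.7 CPM in the IP libraries and 51.8 and 44.5 CPM in total RNA. Both had IP libraries above both total RNA libraries, with adjusted p-values of 3.73e-04 and 4.41e-07 by edgeR. For Actr10 the groups overlapped, at 28.1 and 47.2 CPM in the IP libraries and 22.2 and 28.2 CPM in total RNA.

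Those called lower were Trak1 (−0.36), which ties mitochondria to kinesin-1 and dynein, Mapk8ip1 (−0.63), which encodes the scaffold JIP1, Bicdl1 (−0.68), a dynein adaptor, Ppfia2 (−0.32), a liprin that binds Kif1a, Plekhm2 (−0.36), which joins Arl8 to kinesin-1, and Clstn1 (−0.31), a cargo receptor of kinesin-1. Mapk8ip1 was at 164 and 184 CPM in the IP libraries and 264 and 275 CPM in total RNA, with an adjusted p of 3.48e-08 by edgeR. With the GC and length offset 3 adaptors were called higher (Arl8b, Actr10 and Capza2) and 3 lower (Mapk8ip1, Bicdl1 and Ppfia2).

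The replicates differed from each other in both groups, and several motor genes moved with that difference. The summed level of 6 astrocyte markers was 3399 and 1499 CPM in IP replicates 1 and 2 and 2799 and 1348 CPM in total RNA, and that of 5 microglial markers 23.0 and 3.95 CPM in the IP libraries and 25.8 and 2.95 CPM in total RNA. The 8 neuronal markers summed to 4492 and 4388 CPM in the IP libraries and 4058 and 4584 CPM in total RNA, but single markers moved apart. Rbfox3 was at 309 and 190 CPM in the IP libraries and 318 and 233 CPM in total RNA. Snap25 moved the other way, at 438 and 576 CPM in the IP libraries and 303 and 494 CPM in total RNA. Among astrocyte markers Gfap was at 724 and 121 CPM in the IP libraries and 677 and 114 CPM in total RNA. Between IP and total RNA, 2 of the 6 astrocyte markers were called higher in the blocked fit (Aqp4 at 0.49 and Slc1a3 at 0.34) and 4 were not called, among them Gfap (0.094) and Aldh1l1 (−0.22). Of the 8 neuronal markers, Snap25 was called higher (0.37) and 7 were not called. In such bulk samples fewer cells of a type and less RNA per cell cannot be told apart.

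Kif1c, a kinesin of many tissues, was at 37.7 and 13.6 CPM in the IP libraries and 44.5 and 13.3 CPM in total RNA, with log2 ratios of replicate 2 to replicate 1 of −1.45 and −1.73. Kif5a, Kif5b and Kifc2 were also lower in replicate 2 in both groups, with the values given above, as were Kif13b (15.7 and 12.02 CPM in the IP libraries, 23.8 and 13.8 CPM in total RNA) and Kif9 (5.05 and 2.33, 4.67 and 2.79 CPM). Kif3b (50.2 and 77.7, 46.0 and 70.4 CPM), Dync1li1 and Dctn4 (51.2 and 71.3, 47.4 and 75.0 CPM) were higher in replicate 2 in both groups. The 2 libraries of a replicate number were read as 1 sample, so no test was made of this difference. Whether the astrocyte or microglial RNA has a part in it was not tested.

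**Figure D4:**
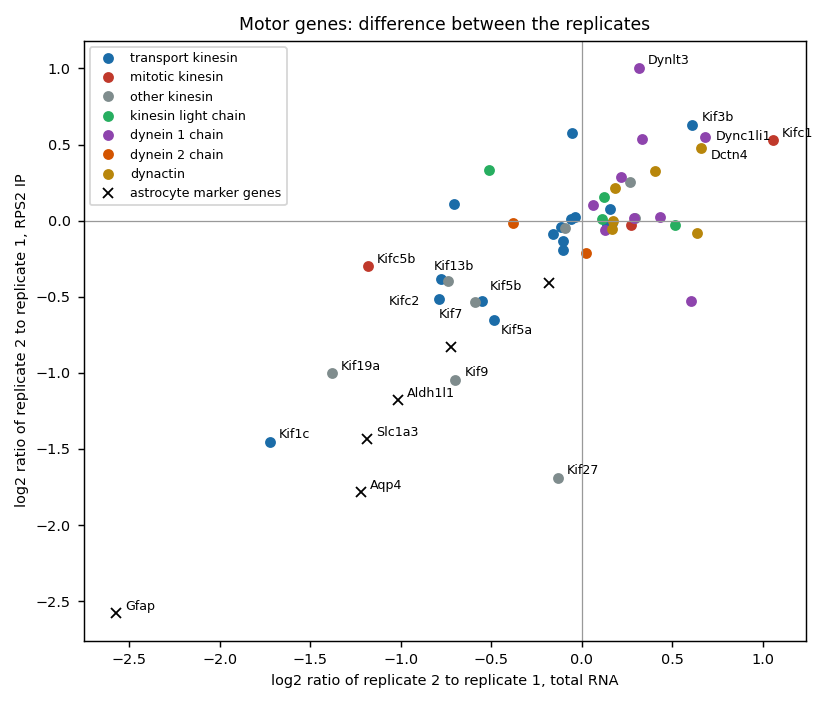
log2 ratio of replicate 2 to replicate 1 in RPS2 IP (y axis) against the same ratio in total RNA (x axis) for the 49 motor genes tested, coloured by family, with astrocyte markers as crosses. Kif1c lies among the astrocyte markers at the lower left, and Kif3b, Dync1li1 and Dctn4 lie at the upper right.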

How the data were processed

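The authors deposited unnormalised gene-level read counts (whole numbers) for 2 RPS2 IP and 2 total RNA libraries. Per the file headers, reads were counted with featureCounts 1.5.3 in stranded mode on an mm10 annotation, and reads that matched more than one locus or gene were left uncounted. The study's methods name cutadapt trimming and end-to-end STAR alignment, and no removal of duplicates. Symbols were matched to GENCODE M21 for 31011 genes.

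The tests were run with edgeR 4.0.16 under R 4.3.3 (filterByExpr, TMM, quasi-likelihood test, two-sided, Benjamini-Hochberg over 12336 genes, threshold 0.05), without the replicate number and with it as a block. According to the methods, total RNA was set aside from the samples used for the IP, so equal numbers were read as one sample. Deviations from the group means correlated at a Pearson r of 0.733 between same-numbered libraries. In the blocked fit edgeR's prior degrees of freedom were infinite, so all genes shared 1 dispersion trend. Nothing says that the replicates came from separate animals, and p-values may measure technical spread. DESeq2 1.42.0 and limma-voom (limma 3.58.1) were alternatives. Ratios within a pair are differences of log2 CPM with a prior count of 2. RPKM used the exonic length in the files, which spans all annotated isoforms. Both fits were also run on simulated counts, drawn with a set dispersion and a replicate difference shared by IP and total RNA. That run assumes the pairing and the noise level, so it cannot judge either. The members, families and gene lists were chosen with earlier results of these data known. Every member could be named. Values in each library were given for the 10 highest per length, those called and a fixed list of subunits, and other values were chosen after they were seen.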

Additional observations from a re-analysis of the deposited data

How the results depend on the processing

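Without the block 0 motor genes were called in either direction under every alternative and left-out library. Calls higher and lower with the block were 5 and 7, and 5 and 7 with at least 10 counts in every library, 5 and 6 with no low-count filter, 1 and 5 with library size only, 6 and 6 with library size without Gm42418, 1 and 4 with DESeq2, 5 and 8 with limma-voom and 2 and 0 with the GC and length offset. Over all genes the blocked fit with at least 10 counts in every library called 878 higher and 926 lower of 10885. The blocked fit with no low-count filter called 769 higher and 699 lower of 18124. DESeq2 gave an adjusted p for 30 of 49 motor genes, and none for Kif13a and Kif26b. The mitotic median could not be computed with at least 10 counts in every library, since no member was left. Leaving out 1 library moved the median log2 fold change over −0.32 to −0.053 for the cargo-carrying kinesins, −1.27 to −0.19 for the mitotic kinesins, −1.22 to 0.13 for their difference, −0.22 to −0.066 for the light chains, 0.10 to 0.53 for the dynein 1 chains and −0.22 to 0.34 for dynactin. In the replicate 1 pair alone the mitotic median was −0.39, the difference −0.17 and the light chain median −0.11, and in the replicate 2 pair the dynein 1 median was 0.053. The light chain median was −0.22 with library size only, and with the block −0.21 with library size only, −0.061 without Gm42418, −0.11 with no low-count filter and 0.018 with the offset, where the cargo-carrying median was −0.037. The mitotic share, whose alternatives were chosen after seeing the data, had a log2 ratio of −0.68 without Kifc1 and Kifc5b and of −0.56 to −0.13 with 1 library left out. The cause of these shifts was not tested. Of the 14 mitotic kinesins 11 were below the count filter.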
